A study of Homo sapiens with 4 samples.

Results

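The genes described here encode 10 receptors on the surface of T cells: the costimulatory receptors CD28, ICOS and CD27, the inhibitory checkpoint receptors PD-1 (PDCD1), CTLA4, LAG3 and TIGIT, the signal-tuning receptors CD5 and CD6, and CD47. They were chosen by name, and a peak belonged to a gene where its identifier carried that symbol in the study's table of targets or, failing that, where all peaks of the identifier touched that gene in GRCh38, on the same strand where the strand of the gene was given. Of the 10 genes, 6 had peaks in the authors' list of peaks from PRMT5 RNA immunoprecipitation (RIP). They had 22 peaks in all, out of 8478 genes and 18993 peaks in the list. CTLA4, ICOS, LAG3 and TIGIT had 0 peaks.

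The RNA came from Jurkat cells, a human leukemic T cell line, which according to the labels were kept for 48 hours with phytohemagglutinin (PHA), a plant lectin that activates T cells, and then irradiated with UV light at 400 mJ to crosslink proteins to RNA. The PRMT5 RIP group holds 2 libraries of RNA recovered by FLAG immunoprecipitation of PRMT5, an arginine methyltransferase that the study examines as an RNA binding protein. The input group holds 2 libraries of RNA from cells given the same PHA and UV treatment, without the immunoprecipitation. Both groups come from 1 cell line, no immunoprecipitation with a control antibody was analysed here, and the list gives only 1 pooled value per group, so no spread between replicates and no test is given. The values are RPM, read numbers scaled to sequencing depth, which summed over all peaks to 755969 in PRMT5 RIP and 489424 in input.

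T cells need a signal from the T cell receptor together with a costimulatory signal to become fully activated. CD28 delivers the classical costimulatory signal when it binds CD80 or CD86 on an antigen-presenting cell, and CTLA4 competes with CD28 for the same ligands and restrains the response. PD-1 appears on activated T cells, binds PD-L1 or PD-L2 and recruits phosphatases that dampen signals from the T cell receptor and CD28, which is why antibodies that block it are used against tumors.

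Most markers of the cell type went with the label, though some had low input. Of 14 T cell markers, 9 had named peaks, among them CD3D with 417 RPM in input and LCK, the kinase that starts T cell receptor signaling, with 183 RPM. CD247 with 28.9 RPM, CD3G with 25.1 RPM and CD2 with 3.46 RPM stood below the 37.3 RPM of the B cell marker CD79A. The other named T cell markers stood above it. Peaks also touched the T cell receptor genes TRAC, TRBC1 and TRBC2, which received no unique name, and CD4 and TRAT1 had no peak. Of markers of other blood cells, CD79A had 37.3 RPM in input, CSF1R 29.5 RPM and NKG7 2.33 RPM, peaks touched HBA1, and the defining genes MS4A1, CD14 and NCAM1 had no peak.

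Of the 7 members with an entry among the RefSeq promoters (GRCh38.p14), CD28 and CD47 had a peak that reached into the promoter window, which runs from 250 bases before to 50 bases after the gene start. The opening of the CD28 peak is shown because this short region, 11 nt after the start base of the promoter entry, had a higher ratio of PRMT5 RIP to input than the other peak of CD28. It lies at chr2:203706650-203706679 on the plus strand, and no part of it is marked in capitals.

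CD28, first 30 of the 50 bases of the 5′ peak: tcctcggggaggaggggctggaaccctagc

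By the log2 ratio of summed RPM, PDCD1 stood in place 1 of the 6 genes with peaks, followed by CD5, CD47, CD6, CD27 and CD28. For each gene the RPM of its peaks was summed in each group, and 0.01 RPM was added to both sums before the ratio was taken. PDCD1 had 0.74 RPM in PRMT5 RIP against 0.28 in input and a log2 ratio of 1.37. CD5 had 1.63 RPM against 0.69 RPM and a log2 ratio of 1.23. All 6 sums were higher in PRMT5 RIP than in input, and only 188 of all 8478 genes of the list had a lower sum in PRMT5 RIP. The highest and the lowest ratio of the 6 genes were 1.06 apart on the log2 scale. Lower down, CD47 had 3.49 RPM in PRMT5 RIP against 1.58 in input and a log2 ratio of 1.14. CD6 had 10.26 RPM against 4.73 RPM and a log2 ratio of 1.12. These 2 genes were only 0.02 apart. CD27 had 13.86 RPM in PRMT5 RIP against 7.25 in input and a log2 ratio of 0.93, and CD28 had 14.56 RPM against 11.73 RPM and a ratio of 0.31. CD28, the receptor with the most RNA in input by summed RPM, had the smallest ratio between the groups, at 1.24-fold.

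**Figure D1:**
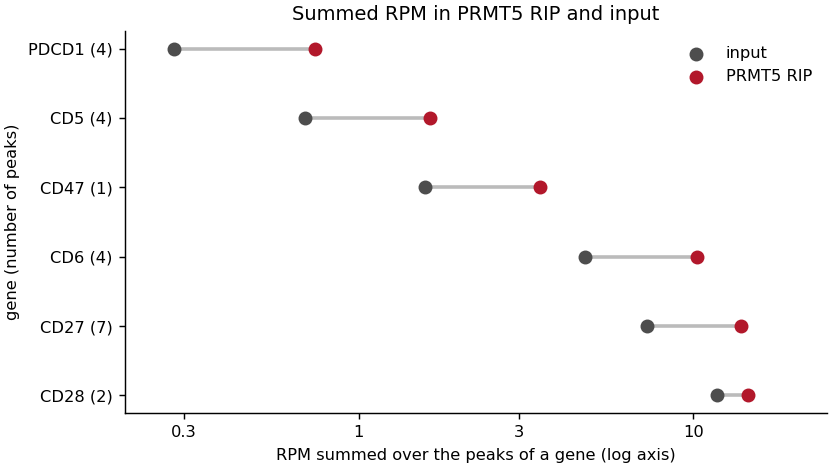
RPM summed over the peaks of each gene (log axis) in input (grey) and PRMT5 RIP (red), with the number of peaks in brackets and the genes in order of their log2 ratio. The red point lies to the right of the grey point in all 6 genes, and the distance is shortest for CD28, at 11.73 and 14.56 RPM.

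The place of PDCD1 above CD5 was within the rounding of the deposited values. RPM values are given in steps of 0.01, so each can be off by 0.005, and over 4 peaks this allows a log2 ratio from 1.24 to 1.51 for PDCD1 and from 1.17 to 1.29 for CD5. These ranges overlap, while those of the other 4 pairs of neighbours in the order do not. Rounding is only 1 part of the error, since the spread between libraries is not in the list. The order also changed with the measure: by the median log2FC that the authors' peak caller gave, CD47 came first with 2.70 and PDCD1 second with 2.19.

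**Figure D2:**
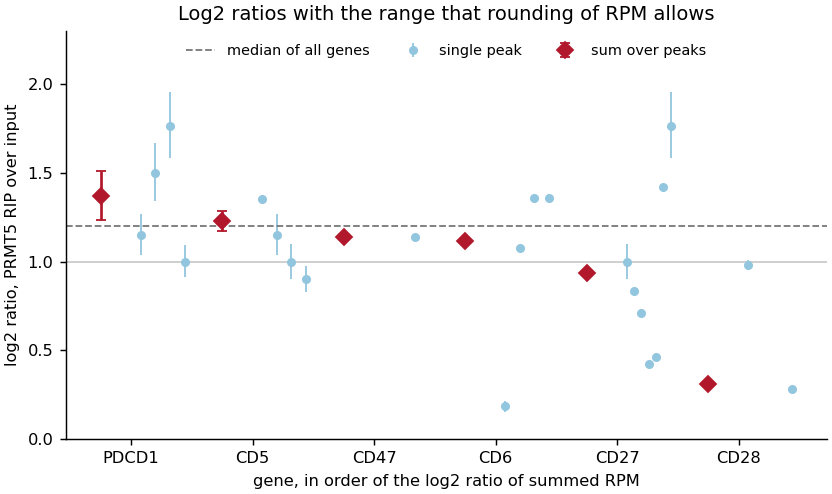
Log2 ratio of PRMT5 RIP over input for the sum of each gene (red diamonds) and for its single peaks (blue points, in 5′ to 3′ order), with bars for the range that rounding of the RPM values allows. The bars of PDCD1 and CD5 overlap, and the dashed line marks the median of all genes, 1.20.

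Read against all genes, the members were not set apart. A log2 ratio of at least 1, a doubling over input, was reached by 4 of the 6 genes (PDCD1, CD5, CD47 and CD6), and by 62.3% of the 8478 genes of the list. The median over the 6 genes was 1.13, beside 1.20 over all genes. PDCD1 was number 3433 of all genes by this ratio, at percentile 59.5, and CD5 lay at percentile 51.6, CD47 at 46.2 and CD6 at 45.1. CD27 lay at percentile 34.0 and CD28 at 7.69.

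The order of the ratios was the reverse of the order of input RPM. PDCD1 had the lowest summed input of the 6 genes and CD28 the highest, and each gene between them had a lower ratio than the gene with the next lower input. Over all 8478 genes the ratio was lower at higher summed input as well, with a Spearman's rho of -0.55 across genes, which are not independent replicates and which share both groups of libraries and the input value that stands in the ratio. Genes with a summed input under 1 RPM had a median log2 ratio of 1.68, and 86.1% of them reached 1, as did both members of that class, PDCD1 and CD5. Genes with at least 1 RPM had a median of 0.99 and 49.3% reached 1, as did 2 of the 4 members there, CD47 and CD6. PDCD1 lay at percentile 32.3 of the 3000 genes under 1 RPM, and CD5 at percentile 25. CD47 and CD6 lay at percentiles 60.5 and 59.1 of the 5478 genes with at least 1 RPM, CD27 at 45.9 and CD28 at 11.1. Input still varies within each class, and CD5 with 0.69 RPM and CD47 with 1.58 RPM lay on either side of the border. Percentiles from the 2 classes are thus not matched for input and give no order between their members.

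**Figure D3:**
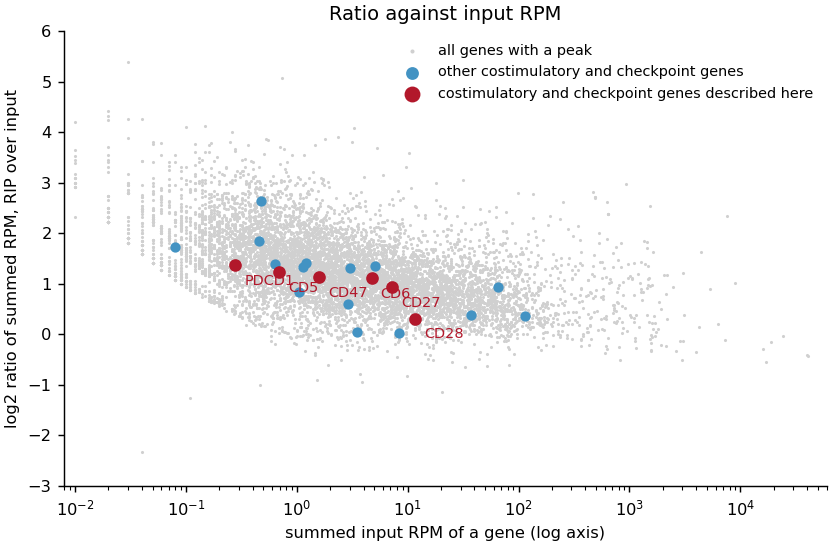
Summed input RPM of each gene (log axis) against its log2 ratio of summed RPM, for all genes with a peak (grey), the other costimulatory and checkpoint genes (blue) and the 6 genes described here (red), with 5 genes outside the axes. The red points run from 1.37 for PDCD1 at 0.28 RPM down to 0.31 for CD28 at 11.73 RPM, within the cloud of all genes.

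The sums compare genes whose peaks cover very different lengths, so the level of RNA was also taken per length. Per kilobase of peak, input was highest in CD5, with 3.94 RPM, followed by CD28 with 2.20, CD6 with 1.52, CD27 with 1.13, PDCD1 with 0.763 and CD47 with 0.148. By this measure CD47, not PDCD1, had the lowest level, and the order of levels was no longer the reverse of the order of ratios. The peak of CD47 is a single block of 10693 nt, a width that can include introns.

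PDCD1, listed as ENSG00000188389.11, lies at 241849884 to 241858894 on the minus strand of chromosome 2, and its 4 peaks cover 4.07% of this span. The widest, of 292 nt, had 0.19 RPM in PRMT5 RIP against 0.08 in input. The other 3 are 25 nt each and lie between 575 and 775 nt from the 3′ end of the gene, with 0.16 against 0.05, 0.16 against 0.04 and 0.23 against 0.11 RPM. All 4 were higher in PRMT5 RIP, and their log2 ratios ran from 1.00 to 1.77. The lowest of these values, in the peak nearest to the 3′ end, has a rounding range from 0.91 to 1.09, so that even its doubling over input is not fixed by the deposited digits. These values lie near the low end of the list: 9 of the 18993 peaks had under 0.13 RPM in PRMT5 RIP, whereas 2948 had under 0.13 RPM in input. A peak with such a low input is therefore in the list almost only with a ratio above 1. Exons and UTRs were not used here, so the part of the mRNA that each peak covers was not determined.

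The low values of PDCD1 recur in other genes to the last digit. The 292 nt peak of PDCD1 and a 25 nt peak of CD5, at 61121759 to 61121783 on chromosome 11, had the same RPM in both groups, the same log2FC of 1.97 and the same FDR of 2.15e-10 in the authors' deposited table. Counting these 2, 6 peaks of the list shared these RPM values and this log2FC. Of 18643 peaks with a log2FC, 2123 shared both RPM values and the log2FC with at least 1 other peak. A PDCD1 peak and the 3′-most peak of CD27 also had the same RPM values, 0.16 and 0.04, but different log2FC values of 2.63 and 2.68 in the authors' deposited table.

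Among the 3 genes nearest to PDCD1 in both summed values, out of 708 genes with 4 peaks, ZNF628 had 0.89 RPM in PRMT5 RIP against 0.33 RPM in input, CEP72 0.94 against 0.24 RPM, and ZNF385A 0.66 against 0.20 RPM. Their log2 ratios of summed RPM were 1.40, 1.93 and 1.67. All 3 were above PDCD1 in this ratio, and likeness here means only the distance of 2 log2 values per gene.

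CD28, listed as ENSG00000178562.18, had 2 peaks on the plus strand of chromosome 2, at opposite parts of the gene. The 50 nt peak, whose opening bases are printed above, is at 203706650 to 203706699, begins 168 nt after the 5′ end of the RefSeq gene span, which lies upstream of the start base of the promoter entry, and had 0.76 RPM in PRMT5 RIP against 0.38 in input and a log2 ratio of 0.98. The other peak is 5286 nt wide, ends 3860 nt before the 3′ end, and had 13.80 RPM against 11.35 RPM, a log2 ratio of 0.28. The wide peak held 94.8% of the RPM of CD28 in PRMT5 RIP and so set the ratio of the gene. The short 5′ peak had the higher ratio, and with no replicate values this difference has no test.

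CD27, a TNF receptor family member that sustains the survival of activated T cells, was listed as ENSG00000139193.4 and had 7 peaks on the plus strand of chromosome 12, the most of any member. They cover 81.7% of its span of 7822 nt. From the 5′ to the 3′ end their RPM in PRMT5 RIP was 0.21, 4.03, 2.28, 1.37, 0.79, 5.02 and 0.16, and in input it was 0.10, 2.26, 1.39, 1.02, 0.57, 1.87 and 0.04. The log2 ratios were 1.00, 0.83 and 0.71 from the 5′ end on, 0.42 and 0.46 in the 2 peaks before the last 2, and 1.42 and 1.77 at the 3′ end. The peak at 6450966 to 6451593, which ends 120 nt before the 3′ end of the gene, was the highest of CD27 in PRMT5 RIP.

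The opposite strand of this locus carried peaks of CD27-AS1, the antisense RNA of CD27, listed as ENSG00000215039.9. Its 5 peaks summed to 9.13 RPM in PRMT5 RIP against 3.72 in input and a log2 ratio of 1.29 beside 0.93 for CD27. Of the 7 CD27 peaks 6 overlapped a CD27-AS1 peak, and no peak of another member overlapped the opposite strand. In the pair of peaks that share 602 nt at the 3′ end, the plus strand had 5.02 RPM in PRMT5 RIP and the minus strand 2.36 RPM, with log2 ratios of 1.42 and 1.24. The kit marks strand according to the labels, but the use of strand in counting is not given in the sources used here, so reads of CD27 and CD27-AS1 may not be separated. Without the overlapping peaks CD27 kept only its 3′-most peak of 25 nt, with a log2 ratio of 1.77, which would put it above PDCD1.

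CD5 and CD6 are related scavenger receptor proteins that lie side by side on chromosome 11 and tune the strength of T cell receptor signals. CD5, listed as ENSG00000110448.11, had a 100 nt peak at 61102514 to 61102613 with 0.96 RPM in PRMT5 RIP against 0.37 in input, and 3 peaks of 25 nt further toward the 3′ end with 0.19 to 0.27 RPM against 0.08 to 0.14 RPM. The log2 ratios were lower from peak to peak, from 1.35 at the 5′-most peak to 0.90 at the 3′-most. CD6, listed as ENSG00000013725.14, had its lowest ratio at the 5′ end. Its 25 nt peak, 75 nt after the 5′ end of the gene, had 0.49 RPM in PRMT5 RIP against 0.43 in input and a log2 ratio of 0.18 and the lowest of all 22 member peaks. The CD6 peaks of 1990, 951 and 150 nt had 5.99 against 2.84, 2.48 against 0.96 and 1.3 against 0.5 RPM, with log2 ratios of 1.07, 1.36 and 1.36. The 150 nt peak lies at 61019451 to 61019600, 777 nt before the 3′ end of CD6.

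CD47, the surface protein that tells phagocytes to spare a cell by binding SIRPA, was listed as ENSG00000196776.17 and had 1 peak on the minus strand of chromosome 3, from 108080297 to 108090989. It starts 42 nt after the 5′ end of the gene and spans 22.3% of it, and no peak lay in the remaining part toward the 3′ end.

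**Figure D4:**
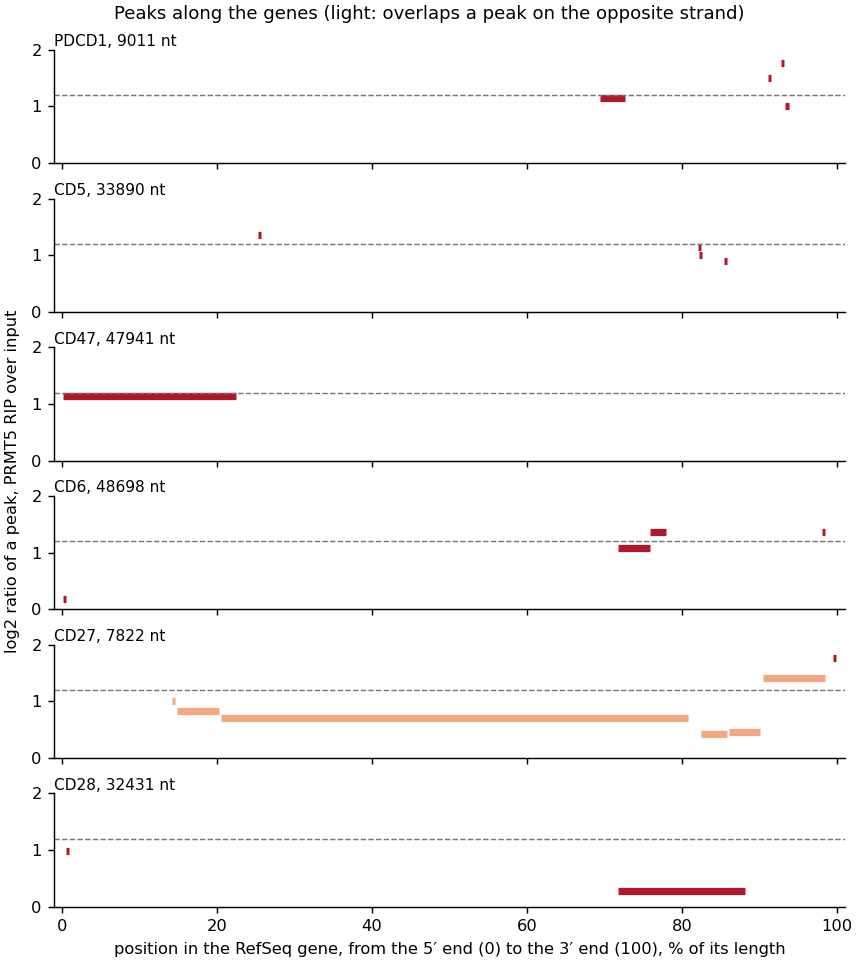
Log2 ratio of each peak (vertical axis) along its RefSeq gene from the 5′ end to the 3′ end, in % of the gene length, with light bars for peaks that overlap a peak on the opposite strand and a dashed line at 1.20, the median of all genes. In CD28 and CD6 the 5′-most bars stand at 0.98 and 0.18, and in CD27 the bars of the 3′ end stand highest, at 1.42 and 1.77.

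Over the 22 peaks, each stood higher in PRMT5 RIP than in input by RPM, as did 18239 of the 18993 peaks of the list. Of the 22 member peaks, 14 had a log2 ratio of at least 1, beside 55.7% of all peaks. The median log2 ratio was 1.04 over the member peaks and 1.10 over all peaks. The FDR in the deposited table of the authors was no higher than 0.01 for all 22, as it was for 96.9% of all peaks. Narrow peaks were common among them: 9 of 22 were 25 nt wide, beside 15.0% of all peaks, and their RPM in PRMT5 RIP ran from 0.16 to 0.49. Of these 9 narrow peaks 7 had a log2 ratio of at least 1, beside 49% of all 2856 peaks of 25 nt, and 3 of the 7 stood at exactly 1.00.

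The 4 genes without peaks include 3 of the 4 inhibitory checkpoint receptors. A lack of peaks was not particular to them, since 34 of the 49 other costimulatory and checkpoint genes described below had none either. The share of all annotated genes without a peak is not given here. CTLA4 lies at 203867771 to 203873965 and ICOS, a costimulatory receptor of the CD28 family, at 203936763 to 203961577, both on chromosome 2 beside CD28. LAG3, which binds MHC class II, lies at 6772520 to 6778455 on chromosome 12, and TIGIT, a receptor for PVR and NECTIN2, at 114294028 to 114310288 on chromosome 3. No peak of either strand touched these 4 spans. The list holds only regions called as peaks, so the input level of these genes is not given, and little RNA in the cells cannot be told apart from RNA that was not enriched. In such bulk samples fewer cells with a transcript and less of it per cell cannot be told apart either.

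A list of ligands, counter-receptors and receptors that share ligands with the members held 14 genes. CD58 was on this list, although it is not a ligand of a member. Of the 14 genes, 4 had peaks, 3 of these 4 with a log2 ratio of at least 1, beside 62.3% of all genes. ALCAM, the ligand of CD6, had 3.06 RPM in PRMT5 RIP against 0.48 in input and a log2 ratio of 2.65. NECTIN2 had 0.29 RPM against 0.08 RPM and a log2 ratio of 1.74. CD70, the ligand of CD27, had 2.88 RPM against 1.13 RPM and a log2 ratio of 1.34, above the 0.93 of its receptor. SIRPG, a receptor for CD47, had 4.38 RPM against 2.88 RPM and a log2 ratio of 0.60. CD80, CD86, CD274 (PD-L1), PDCD1LG2 (PD-L2), ICOSLG, CD58, SIRPA, PVR, CD96 and CD226 had no peak, so that PD-L1, PD-L2, CD80 and CD86, which bind PD-1 or CD28, were not among the peaks.

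In a wider list of 49 other costimulatory and checkpoint genes, which holds those ligands too, 15 had peaks and 8 of the 15 had a log2 ratio of at least 1, beside 62.3% of all genes. Their median was 1.31. Beside ALCAM and NECTIN2, the 5 largest ratios included LY9, a SLAM family receptor second after ALCAM, with 1.68 RPM in PRMT5 RIP against 0.46 in input (1.85), TNFRSF14, the receptor of LIGHT and BTLA, with 3.24 against 1.21 RPM (1.41), and VSIR, the checkpoint protein VISTA, with 1.70 against 0.64 RPM (1.40). These 5 genes stood above PDCD1, which took place 6 of 21 when the lists were joined. The rounding range of PDCD1, 1.24 to 1.51, also holds TNFRSF14 and VSIR above it and TNFSF9 (1.34), CD70 (1.34) and TMIGD2 (1.31) below it, so the deposited digits do not fix this place. The smallest ratios were 0.02 in CD48, 0.05 in the adhesion receptor CD2 and 0.37 in CD7. CD2 and CD48 were the 2 genes of the 15 below CD28, with 3.58 against 3.46 RPM and 8.54 against 8.42 RPM.

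Of 39 genes for proteins that act next to CD28 and PD-1 in signaling, 26 had peaks, 15 of these had a log2 ratio of at least 1, beside 62.3% of all genes, and the median was 1.07. PTPN11 (SHP-2), the phosphatase that PD-1 recruits, had 6.54 RPM in PRMT5 RIP against 1.62 in input and a log2 ratio of 2.01. PTPN6 (SHP-1), the related phosphatase, had 53.72 against 35.15 RPM and a ratio of 0.61. PIK3R1, the regulatory subunit of PI3-kinase that binds CD28, had 0.82 against 0.12 RPM and the largest ratio of the list, 2.67. The 5 largest also included MAP3K14, a kinase of the noncanonical NF-kB pathway, with 2.26, the SRC family kinase FYN with 2.02, and CBL, a ubiquitin ligase, with 1.78. The smallest ratios were -0.03 in PIK3CD, the catalytic subunit of PI3-kinase in lymphocytes, with 2.56 against 2.61 RPM, 0.31 in LCK and 0.40 in ZAP70.

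The markers of the T cell itself had low ratios throughout. The lists share genes: CD2 and CD7 are also among the other costimulatory and checkpoint genes, and LCK and ZAP70 among the effector genes. Of the 9 with named peaks, 0 reached a log2 ratio of 1, beside 62.3% of all genes and 49.3% of the genes with at least 1 RPM of input, the class of all 9. Their median was 0.33, from 0.05 in CD2 to 0.62 in CD247, a chain of the T cell receptor complex. Their median summed input was 102 RPM, against 3.16 RPM for the 6 members. CD28, at 0.31, lay within the range of these markers, and the other 5 members lay above it. What part the difference in input RPM has in this was not tested.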

How the data were processed

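Per the submitters' processing notes, fastp and HISAT2 were used with the build hg38, with versions, peak caller, annotation, thresholds and the pooling of the 2 libraries per group not given in the sources used here. The authors deposited 1 list of peaks with RPM values for PRMT5 RIP and input, rounded to 0.01, together with a log2 fold change (named log2FC) from their peak caller, its p-value and its FDR, whose scaling is not stated. These p-values and FDR are the authors', and no test was made here. Depth per library is unknown, because RPM does not give whole reads, so no interval or floor for counting error was computed.

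Where a peak listed several identifiers the first was taken, and peak starts were raised by 1. Symbols came from 1999 rows of the study's table of targets (849 identifiers) and otherwise from RefSeq genes of GRCh38.p14 (6353 identifiers), where strand was used if the RefSeq promoter table gave it. Of 778 identifiers named both ways, 776 had the same name. Overlapping and antisense genes are uncertain in this matching. RPM was summed per gene, and log2 ratios were taken with a pseudocount of 0.01, with a ratio of at least 1 used as the call. The sums, ratios and calls were tested on simulated peaks without noise and with at least 1 RPM of input. Input as low as that of the PDCD1 peaks and the naming of genes were not tested in this way. The 10 members, the gene lists and the split at 1 RPM of input were chosen with earlier results of these data known. Of the lists, the 5 largest and 3 smallest ratios, the ligands and the 3 genes nearest to PDCD1 were to be named, and further genes were chosen after their values were seen. CD166, an older name of ALCAM, was counted once. The alternatives covered the pseudocount, the summary over peaks, the log2FC, input RPM, FDR, peak width, identifiers, the opposite strand and the call. Promoter sequence was found for 7 of the 10 members. Python 3.11.15, pandas 2.3.3, numpy 2.4.6 and matplotlib 3.10.9 were used.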

Additional observations from a re-analysis of the deposited data

How the results depend on the processing

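No paired analysis was possible because the list holds 1 pooled value per group at each peak, and for the same reason no library was left out. PDCD1 kept place 1 among the members under no pseudocount, a pseudocount of 0.1 RPM, the median over peaks and the largest peak (shared with CD27). It also did so under both FDR limits, every listed identifier, both rounding ends and peaks inside the RefSeq span. The FDR limit of 0.01, every listed identifier and the RefSeq span changed no member value. PDCD1 could therefore not lose its place under these settings. At each rounding end all genes moved the same way. The low end of PDCD1, 1.24, was thus not set against the high end of CD5, 1.29, and their ranges overlap. PDCD1 fell to place 5 with a pseudocount of 1 RPM, to 2 by the deposited log2FC, to 4 with input of at least 0.1 RPM, to 3 with peaks of at least 50 nt and to 2 without peaks overlapping the opposite strand. With input of at least 0.5 RPM, PDCD1 and CD5 had no value. The number of members with a log2 ratio of at least 1 was 4 as reported. It was 0 with a pseudocount of 1 RPM and with a call at 1.5, and 2 with input of at least 0.5 RPM. The deposited log2FC gave 6. The number was 5 by the largest peak, with an FDR at or below 1e-10, without opposite overlaps and with a call at 0.5. The share of all genes reaching the call was not computed under these settings, so these counts are not a result about the members. The number of members with a peak was 4 with input of at least 0.5 RPM and 6 otherwise.

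The median ratio of the members, 1.13 as reported, was 1.10 with a pseudocount of 0.1 RPM, 0.72 with 1 RPM, 1.11 by the median over peaks, 1.36 by the largest peak, 1.91 by the deposited log2FC, 1.06 and 1.03 with input of at least 0.1 and 0.5 RPM, 1.15 with an FDR at or below 1e-10, 1.15 with peaks of at least 50 nt, and 1.18 without opposite overlaps. No member's ratio changed sign, which the settings built on RPM could not bring about, because all 22 member peaks were higher in PRMT5 RIP. Of the other costimulatory and checkpoint genes, 8 as reported, 3 reached the call with a pseudocount of 1 RPM, 13 by the log2FC, 4 with input of at least 0.5 RPM, 4 with an FDR at or below 1e-10 and 3 at a call of 1.5. Of the effector genes, 15 as reported, the numbers were 6, 25, 7, 9 and 6. Here too the share of all genes under each setting was not computed, so these counts do not set the lists apart. The causes of these changes were not tested, and RPM of at most 0.23 in every PDCD1 peak limits what can be said of it.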
